A study of Mus musculus with 6 samples.

Results

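The 31 genes described here carry glucose and lactate across the cell membrane, turn glucose into pyruvate, and pass pyruvate on to lactate or to acetyl-CoA. They were taken by symbol from a written list, and all 31 were present among the 32200 gene symbols of the count tables. By role, 4 are transporters of glucose or lactate, 10 belong to the steps from hexokinase to aldolase, 8 to the steps from triose phosphate to pyruvate, 2 are subunits of lactate dehydrogenase, and 7 govern the entry of pyruvate into the mitochondrion and its oxidation. Glycolysis yields ATP and NADH in the cytosol, and the reduction of pyruvate to lactate gives back the NAD that keeps the upper steps running. Pyruvate that enters the mitochondrion becomes acetyl-CoA through the pyruvate dehydrogenase complex, which dedicated kinases switch off. Activated and dividing T cells are known for high glucose uptake and lactate output, and the inhibitory receptor PD-1, encoded by Pdcd1, is known to restrain glycolysis in activated T cells.

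The study asked how loss of PD-1 alters CD8+ T cells of the thymus, the spleen and a tumor in adult C57BL/6 mice older than 8 weeks. RNA of single cells was counted with PIPseq, which tags each RNA molecule with a unique molecular identifier (UMI), in 6 libraries, 1 for each of 3 tissues and 2 genotype labels. Mice labelled Pdcd1fl/fl carried the floxed allele without Cre, and mice labelled Pdcd1 cKO carried it together with E8I CD8-Cre, which by the study's account deletes the gene after positive selection. Each thymus and spleen library came from 1 untreated mouse, and each tumor library pooled 3 mice at day 12 after subcutaneous injection of B16-OVA cells, a mouse melanoma line that expresses ovalbumin. Thymus and spleen cells were enriched with a CD8a+ T cell isolation kit, while tumor cells were digested, freed of dead cells and enriched with CD8 (TIL) microbeads, so tissue, handling and library cannot be told apart. The E8I driver reports on deletion in CD8 cells only, and the pooled tumor mice cannot be separated from each other. With 1 library per genotype and tissue there are no replicates, and every interval below is a 95% interval for counting error alone.

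Levels are given as CPM (counts-per-million), the UMIs of a gene scaled to all UMIs of the same cell set. They are listed with the library labelled Pdcd1fl/fl first and the library labelled Pdcd1 cKO second, in the order thymus, spleen, tumor T cells. The label ratio compares the genotype labels of a tissue: the log2 of CPM with the label Pdcd1 cKO divided by CPM with the label Pdcd1fl/fl. A gene rose or fell when its log2 ratio reached 1 in size and it held at least 100 UMIs over both cell sets, and genes with fewer UMIs are given as counts only. After filtering, the libraries held 1067 and 2635 thymus cells, 1478 and 4928 spleen cells, and 456 and 561 tumor cells. Spleen was the shallowest tissue, with a median of 1320.5 and 1615 UMIs per cell, against 4361 and 5417 in thymus and 13809.5 and 9510 in tumor.

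Pdcd1 RNA went against the genotype labels in thymus and spleen. It gave 12 and 131 UMIs in thymus (1.88 and 6.84 CPM), 1 and 104 UMIs in spleen (0.450 and 11.7 CPM), and 702 and 801 UMIs in tumor T cells (183 and 152 CPM). The label ratio of Pdcd1 was 1.87 in thymus (1.01 to 2.85), 4.69 in spleen (2.18 to 10.01) and −0.27 in tumor T cells (−0.41 to −0.12). Counts per gene do not show which exon was read, and the exons lost by the floxed allele are not given in the sources used here. The counts do not measure PD-1 protein. For that reason the libraries are named by their labels throughout, and no difference between them is ascribed to loss of PD-1.

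All 14 T cell markers were detected in every library, with summed levels of 8294 and 7883 CPM in thymus, 6357 and 8516 CPM in spleen, and 7305 and 8521 CPM in tumor T cells. The thymus held immature cells, with 1113 and 997 CPM over 8 immature thymocyte markers (Dntt 478 and 377 CPM), against 107 and 124 CPM in spleen. Cycling cells, called by at least 5 UMIs of 14 cycling markers, made up 53.9% and 24.8% of thymus cells and 51.9% and 53.5% of tumor T cells, while the spleen held only 6 and 18 of them. Spleen libraries differed in other cells too: 7 B or plasma cell markers summed to 198 CPM in the library labelled Pdcd1fl/fl (6 detected, Ms4a1 at 0) and, with the label Pdcd1 cKO, to 2168 CPM (Igkc 1517 CPM). Granulocyte markers there summed to 2.70 and 70.1 CPM, erythroid markers to 1.35 and 29.9 CPM, NK markers to 83.7 and 160.02 CPM, and macrophage markers to 12.2 and 31.5 CPM. The tumor libraries split into 287 and 469 T cells, 27 and 34 macrophage-like cells and 142 and 58 melanoma-like cells. No doublet caller was run, and cells drawing at least 20% of their marker UMIs from another class numbered 5 and 1 among T cells, 3 and 6 among macrophage-like cells, and 1 and 1 among melanoma-like cells. The spleen libraries shared 2 barcodes, and no other pair shared any.

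With cycling cells included, the summed share of UMIs that fell on the 31 genes was lowest in spleen and highest in tumor T cells. It was 0.333% (0.328 to 0.337) and 0.239% (0.237 to 0.242) in thymus, 0.151% (0.145 to 0.156) and 0.205% (0.202 to 0.208) in spleen, and 0.600% (0.592 to 0.607) and 0.647% (0.640 to 0.654) in tumor T cells. The library labelled Pdcd1 cKO thus had the smaller share in thymus and the larger one in spleen and tumor T cells. Leaving out Ldha, Gapdh, Tpi1 and Aldoa, the shares were 0.204% and 0.141%, 0.114% and 0.146%, and 0.252% and 0.265%, so the direction in each tissue did not rest on these abundant genes alone. Without cycling cells the share of all 31 genes with the label Pdcd1 cKO was 0.174% in thymus and 0.203% in spleen, so spleen was not lowest there. Of the 31 genes, 30 and 31 were detected in thymus, 29 and 31 in spleen, and 31 and 31 in tumor T cells.

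**Figure D1:**
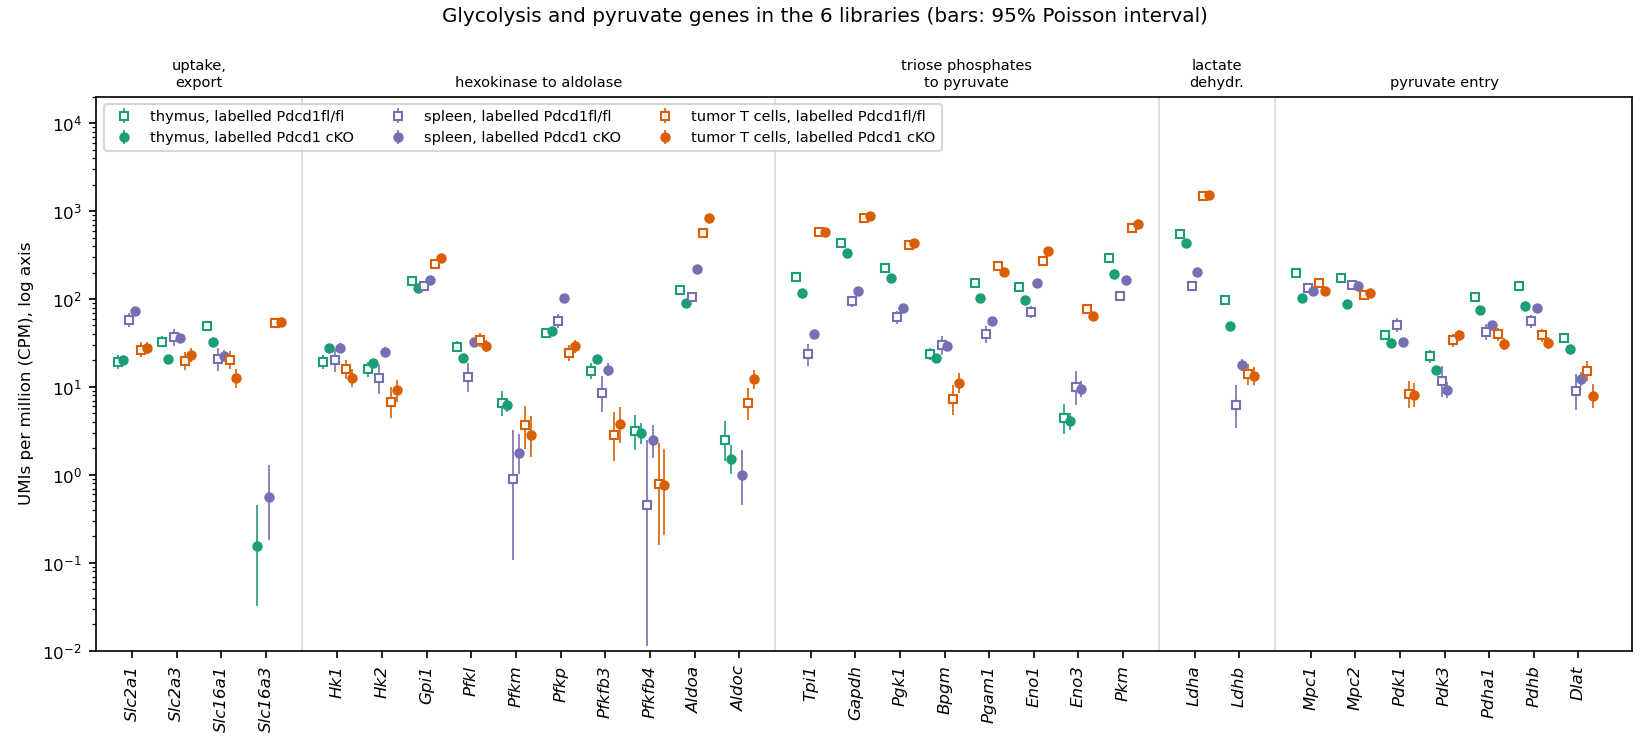
CPM of each member by role on a log axis in the thymus, spleen and tumor T cells of each library, with 95% Poisson intervals. Open squares are libraries labelled Pdcd1fl/fl, filled circles are libraries labelled Pdcd1 cKO, and members at 0 UMIs are not drawn.

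Between genotype labels, the median ratio of the glycolytic genes was below 0 in thymus, above 0 in spleen, and close to 0 in tumor T cells. In thymus 0 of 28 members passed the threshold in either direction (3.62% of 10378 genes rose and 4.06% fell), and their median label ratio was −0.44 against −0.07 for all genes. Intervals lay wholly below 0 for 20 of the 28 members, against 3646 of the 10378 genes, and wholly above it for Hk1 and Pfkfb3 alone, against 2340 genes. In spleen 4 of 27 members rose and 0 fell (5.08% of 7842 genes rose and 0.676% fell), and the median was 0.45 against 0.17 for all genes. Among tumor T cells 0 of 24 passed in either direction (4.18% of 5000 genes rose and 1.82% fell), with a median of 0.03 against 0.08. That median depended on the cells taken: 0.40 against 0.23 without cycling cells, and −0.16 against 0.01 at doubled clustering resolution. Doubled resolution left out a cluster of 139 and 50 cells (Dapl1, Ccr7, Xcl1) that the naming rule did not name. The spleen result was weaker under a strict filter (at least 1000 genes and at most 10% mitochondrial UMIs), which left 86 and 954 cells and fewer testable genes: the median of 19 members was 0.09 against 0.06 for all genes. Among cells with T cell markers and no other lineage it was 0.45 of 18 members against 0.15, with 2 up beside 171 of 4399 genes. Beyond this, the part of the B or plasma, granulocyte, erythroid, NK and macrophage markers in the spleen result was not tested. Under median-of-ratios scaling every ratio of a comparison moves by the same amount, so a ratio between 0 and the all-gene median changes sign, and the member medians became −0.36, 0.28 and −0.05. Scaled to UMIs without mitochondrial and ribosomal genes and Malat1, they became −0.26, 0.31 and −0.09, with all-gene medians of 0.11, 0.04 and −0.04. In spleen 2 of 27 members rose under either scaling, beside 229 and 259 of 7842 genes. By mean per-cell CPM 7 of 27 rose there, beside 445 of 7842, and under the strict filter 1 of 19, beside 279 of 4162.

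**Figure D2:**
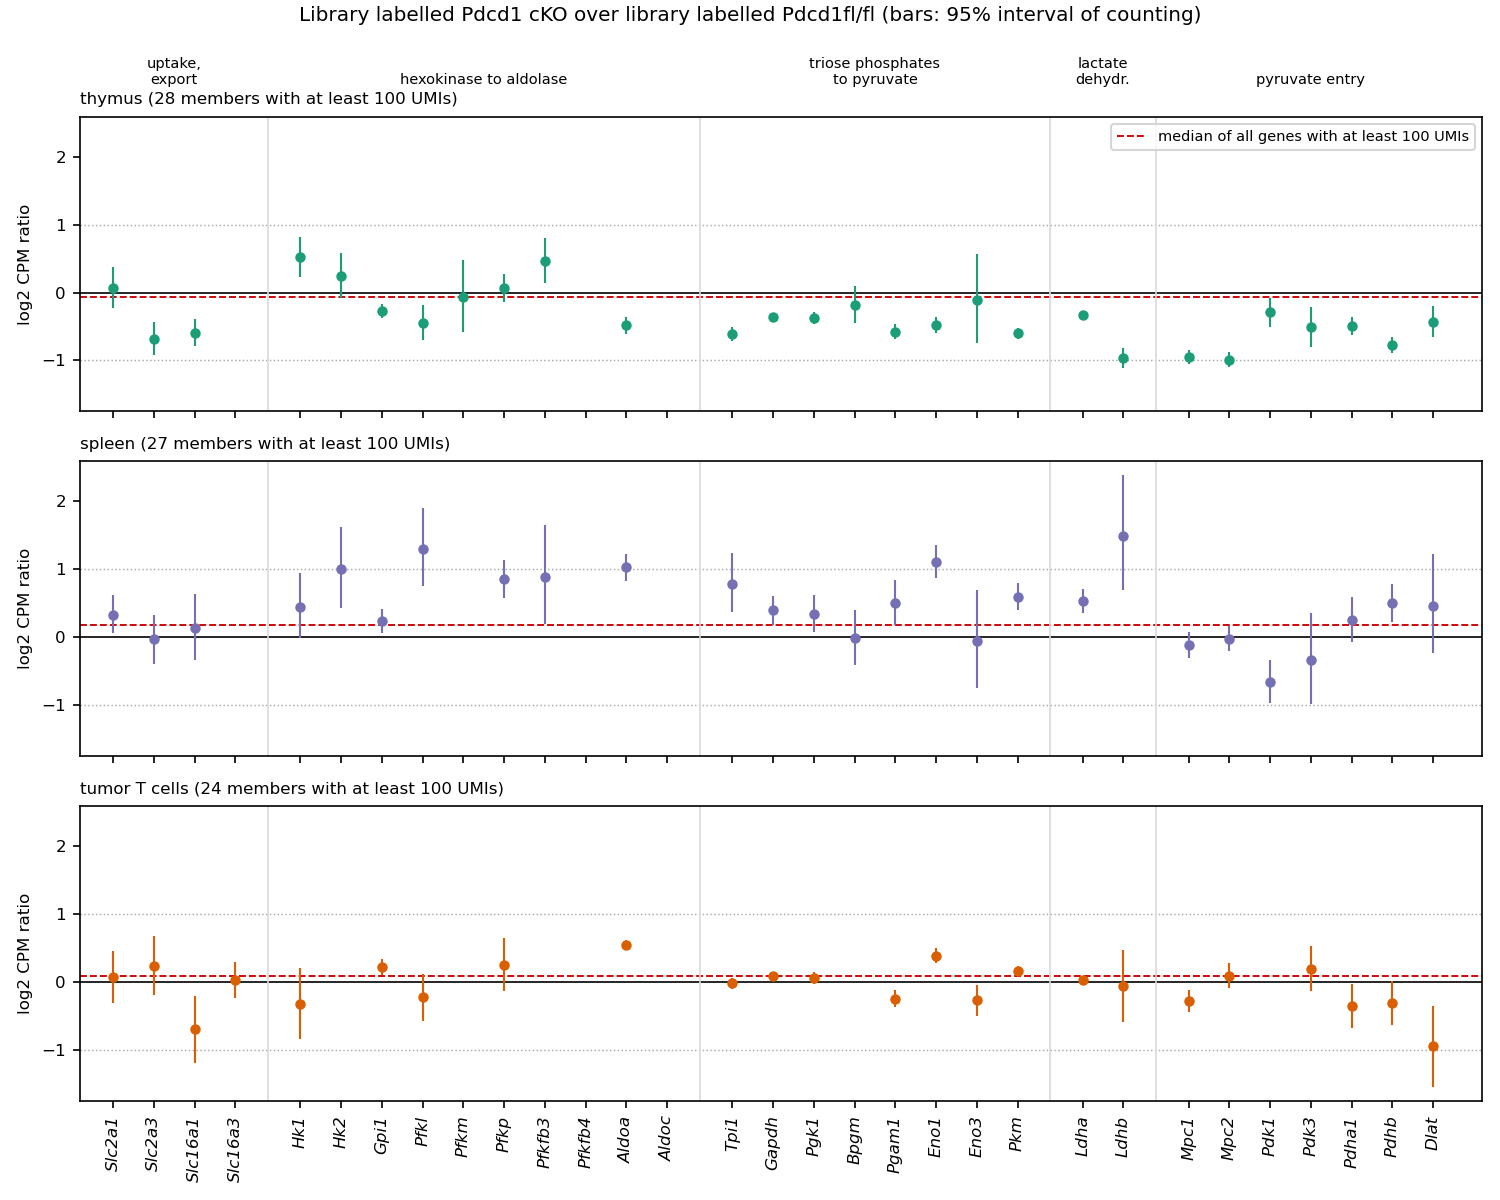
Label ratio of each member with at least 100 UMIs, 1 panel per tissue, with 95% counting intervals. The dashed red line is the median of all genes with at least 100 UMIs and the dotted lines mark a 2-fold difference.

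Between tissues, most genes of the lower glycolytic steps were far more abundant in tumor T cells than in spleen, while Slc2a1, Slc2a3 and Hk1 were not. Relative to spleen, 12 of 23 members rose and 3 fell in tumor T cells labelled Pdcd1fl/fl (16.3% of 4834 genes rose and 37.8% fell), with a median of 1.40 against −0.38 for all genes. With the label Pdcd1 cKO 11 of 28 rose and 8 fell (11.1% of 8352 genes rose and 46.8% fell), with a median of −0.20 against −0.86. In spleen over thymus, 1 of 26 rose and 12 fell with the label Pdcd1fl/fl (7.95% of 7520 genes rose and 28.4% fell), with a median of −0.94 against −0.43. For the label Pdcd1 cKO 4 of 28 rose and 7 fell (9.61% of 10665 genes rose and 14.7% fell), with medians of −0.04 and −0.11. Relative to the all-gene shift, as under median-of-ratios scaling, the member medians were 1.79 and 0.65 for tumor T cells over spleen, the latter a change of sign. For spleen over thymus they were −0.51 and 0.08, the latter again a change of sign. Under that scaling 1 and 2 members fell in tumor T cells over spleen, beside 1476 of 4834 and 2293 of 8352 genes. Without cycling cells, which were rare in spleen, the medians were 0.73 and −0.31 for tumor T cells over spleen (all genes −0.75 and −1.08) and −0.84 and 0.19 for spleen over thymus (all genes −0.34 and −0.03). In that last comparison only 1 of 27 members then fell, beside 892 of 9703 genes.

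Inside the tumor, melanoma-like cells gave the largest share of their RNA to these genes. The share was 1.45% (1.44 to 1.46) and 1.45% (1.44 to 1.47) in melanoma-like cells and 0.727% (0.695 to 0.760) and 1.21% (1.18 to 1.25) in macrophage-like cells. Melanoma-like over T cells, 15 of 29 members rose and 2 fell with the label Pdcd1fl/fl (43.4% of 6660 genes rose and 7.72% fell), with a median of 1.10 against 0.80 for all genes. With the label Pdcd1 cKO 12 of 26 rose and 1 fell (29.4% of 5210 genes rose and 13.1% fell), with medians of 0.97 and 0.36. Macrophage-like over T cells, 4 of 19 rose and 1 fell with the label Pdcd1fl/fl (21.1% of 2949 genes rose and 18.6% fell), with medians of 0.33 and −0.04. For the label Pdcd1 cKO 8 of 20 rose and 2 fell (19.8% of 3862 genes rose and 22.6% fell), with medians of 0.80 and −0.15. Median-of-ratios scaling gave medians of 0.31 and 0.61 for melanoma-like cells and 0.36 and 0.94 for macrophage-like cells. In melanoma-like cells 9 of 29 and 9 of 26 members then rose, beside 1557 of 6660 and 1113 of 5210 genes. Melanoma markers in T cells stood at 1.57% and 0.995% of their level in melanoma-like cells, and whether as free RNA or in mixed cells was not tested. Carried over at those shares, melanoma RNA would account for 75.2% and 51.7% of Ldhb in T cells and 25.3% of Aldoc in T cells labelled Pdcd1fl/fl, so T cell and melanoma RNA of Ldhb cannot be told apart.

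**Figure D3:**
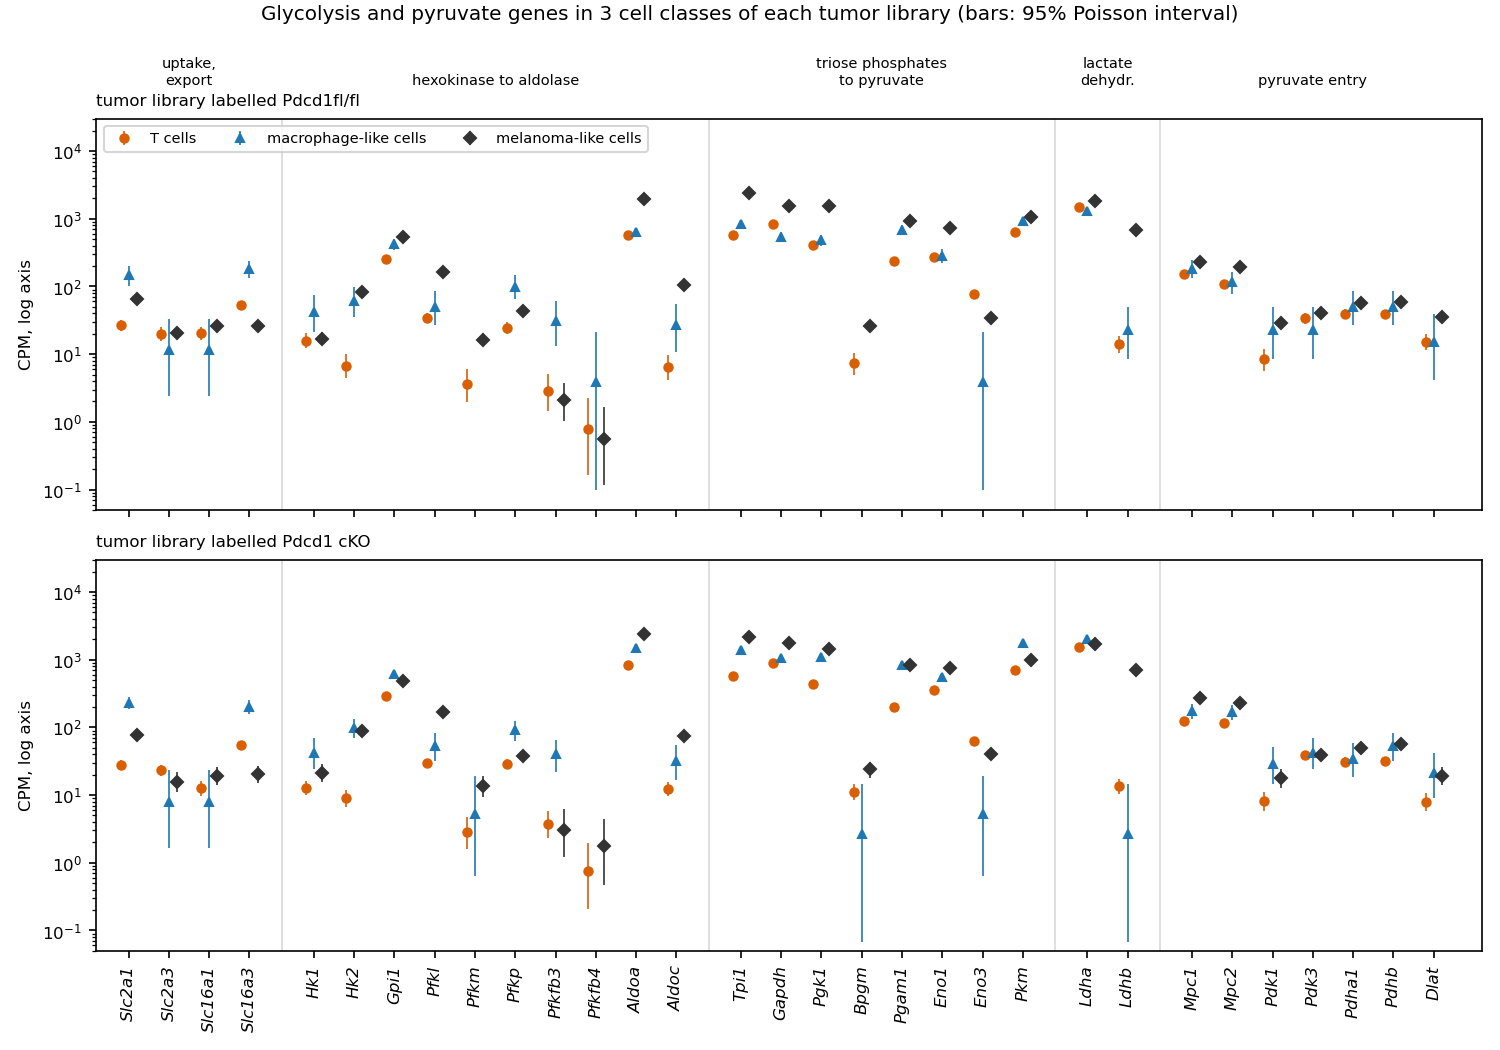
CPM of each member on a log axis in T cells (circles), macrophage-like cells (triangles) and melanoma-like cells (diamonds), 1 panel per tumor library, with 95% Poisson intervals. Members at 0 UMIs are not drawn.

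Among the transporters, the lactate exporter Slc16a3 was the one that set tumor T cells apart. Slc16a3, which encodes the carrier MCT4 typical of cells that export much lactate, gave 0 and 3 UMIs in thymus, 0 and 5 in spleen, and 206 and 288 in tumor T cells (53.7 and 54.7 CPM). With the label Pdcd1fl/fl, tumor T cells exceeded spleen by a log2 ratio of 5.31 (39.8-fold) when the 0 UMIs of spleen were set to a floor of 3 counts. With the label Pdcd1 cKO the log2 ratio was 6.61 (5.37 to 8.24). Slc16a1, whose carrier MCT1 moves lactate either way, was at 49.1, 32.6, 20.7, 22.7, 20.3 and 12.5 CPM. Of the summed UMIs of Slc16a3 and Slc16a1, Slc16a3 held 0% (up to 1.17) and 0.478% (0.0988 to 1.39) in thymus, 0% (up to 7.71) and 2.40% (0.785 to 5.52) in spleen, and 72.5% (67.0 to 77.6) and 81.4% (76.9 to 85.3) in tumor T cells. The lactate carrier RNA thus passed from almost only Slc16a1 to mostly Slc16a3. Macrophage-like cells held more Slc16a3, at 180.1 and 202 CPM, and melanoma-like cells less, at 26.3 and 20.6 CPM. Between labels Slc16a3 in tumor T cells was level at 0.03 (−0.24 to 0.29), and Slc16a1 was lower by label in thymus at −0.59 (−0.79 to −0.39) and in tumor T cells at −0.70 (−1.19 to −0.21), short of the threshold and reversed to 0.27 within cluster 1 of the 3 T cell sub-clusters.

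Glucose transporter RNA did not follow the same course. Slc2a1, which encodes the widespread transporter GLUT1, was at 19.1, 20.01, 58.1, 73.2, 26.6 and 27.9 CPM, and Slc2a3, which encodes the high-affinity GLUT3, at 32.9, 20.5, 36.9, 36.1, 19.8 and 23.4 CPM. Slc2a1 was up in spleen from thymus by 1.61 and 1.87 and down in tumor T cells relative to spleen, at −1.13 and −1.39. Under median-of-ratios scaling neither fall of Slc2a1 passed the threshold. In macrophage-like cells it reached 146 and 231 CPM, log2 ratios of 2.45 (1.87 to 3.003) and 3.05 (2.65 to 3.44) over T cells. In melanoma-like cells it stood at 64.7 and 76.1 CPM, ratios of 1.28 and 1.45. Between labels Slc2a3 was lower in thymus at −0.68 (−0.92 to −0.43), so its share of the pair went from 63.3% (57.8 to 68.5) to 50.6% (47.1 to 54.2), while Slc2a1 there was level at 0.07 (−0.23 to 0.37).

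At the first steps of glycolysis, hexokinase RNA was modest in T cells of every tissue. Hk1, the housekeeping hexokinase, was at 19.4, 27.8, 20.3, 27.7, 15.9 and 12.7 CPM, and Hk2, the inducible form, at 15.96, 18.9, 12.6, 25.2, 6.78 and 9.12 CPM. Hk2 in spleen came close to the threshold without reaching it, at a label ratio of 1.00 (0.43 to 1.62), and Hk1 in thymus was higher at 0.52 (0.24 to 0.81). Hk1 reversed to −0.44 among thymus cells with CD8 RNA and no Dntt. Melanoma-like cells held 84.2 and 87.1 CPM of Hk2, log2 ratios of 3.63 and 3.25 over T cells. Hk2 therefore made up 83.2% and 80.2% of hexokinase UMIs there, against 29.9% and 41.7% in tumor T cells. Gpi1, which turns glucose phosphate into fructose phosphate, was at 161, 133, 139.6, 165, 251 and 293 CPM, with label ratios of −0.27 (−0.38 to −0.17), 0.24 (0.06 to 0.42) and 0.22 (0.11 to 0.34).

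Phosphofructokinase, the main control point of the pathway, changed its isozyme make-up between tissues. Pfkl, the liver-type subunit, was at 28.8, 21.2, 13.1, 32.3, 34.4 and 29.5 CPM, and Pfkp, the platelet-type subunit, at 41.3, 43.1, 56.3, 102, 24.3 and 28.9 CPM. Pfkl rose by label in spleen, at 1.31 (0.75 to 1.91), and Pfkp was higher there at 0.85 (0.58 to 1.13). Of their summed UMIs, Pfkp held 58.9% (54.2 to 63.5) and 67.0% (64.3 to 69.7) in thymus, 81.2% (74.1 to 87.0) and 75.9% (73.4 to 78.3) in spleen, and 41.3% (34.8 to 48.1) and 49.5% (43.8 to 55.2) in tumor T cells. Spleen was thus the tissue most given to the platelet type, and Pfkp fell in tumor T cells relative to spleen, at −1.21 and −1.81. Under median-of-ratios scaling neither fall passed the threshold. Pfkl in contrast rose in tumor T cells relative to spleen with the label Pdcd1fl/fl, at 1.40, and was level with the label Pdcd1 cKO, at −0.13. Melanoma-like cells leaned to the liver type, with Pfkl at 164 and 166 CPM and a Pfkp share of 20.9% and 18.6%. The muscle-type Pfkm gave few UMIs, 42 and 120 in thymus, 2 and 16 in spleen, and 14 and 15 in tumor T cells. Pfkfb3, which makes the activator of phosphofructokinase, was at 15.2, 20.9, 8.55, 15.8, 2.87 and 3.80 CPM, with label ratios of 0.46 (0.14 to 0.80) in thymus and 0.89 (0.19 to 1.66) in spleen. The thymus ratio of Pfkfb3 reversed to −0.81 among cells with CD8 RNA and no Dntt. Pfkfb3 fell in tumor T cells relative to spleen, at −2.06, with the label Pdcd1 cKO. The related Pfkfb4 gave 20 and 57 UMIs in thymus, 1 and 22 in spleen, and 3 and 4 in tumor T cells.

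Of members with at least 100 UMIs, Aldoa had the highest positive label ratio in tumor T cells. It splits the sugar phosphate into trioses and was at 127, 91.1, 106, 217, 570.4 and 834 CPM. Its label ratio was −0.48 (−0.60 to −0.36) in thymus, 1.03 (0.83 to 1.23) in spleen, where it rose, and 0.55 (0.47 to 0.62) in tumor T cells. Under median-of-ratios scaling the spleen ratio no longer passed the threshold. Tumor T cells held more of it than spleen by log2 ratios of 2.42 and 1.94. Aldoc, the brain-type aldolase, gave 16 and 29 UMIs in thymus, 0 and 9 in spleen, and 25 and 65 in tumor T cells, but 555 and 170 in melanoma-like cells (105 and 74.4 CPM). There it was 4.01 and 2.59 above T cells, and Aldoa reached 1929 and 2424 CPM.

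Most steps from triose phosphate to pyruvate were far more abundant in tumor T cells than in spleen. Tpi1, which interconverts the triose phosphates, was at 179, 118, 23.4, 40.5, 581 and 573 CPM, a gain in tumor T cells over spleen of 24.8-fold and 14.2-fold. Gapdh, the NADH-yielding step, was at 432, 337, 94.6, 124, 837 and 888 CPM, and Pgk1, the first ATP-yielding step, at 226, 174, 62.6, 79.7, 417 and 434 CPM. Pgam1, the phosphoglycerate mutase, was at 151, 101, 39.6, 56.1, 239.7 and 202 CPM, and Pkm, the pyruvate kinase that closes glycolysis, at 293, 193, 108, 163, 635 and 707 CPM. Each of these genes was lowest in spleen and highest in tumor T cells, except that without cycling cells Pkm and Pgam1 with the label Pdcd1 cKO were lower in thymus (141 and 52.6 CPM) than in spleen (162 and 55.3 CPM). Thymus cells of that label with CD8 RNA and no Dntt also did not exceed spleen for Tpi1 (40.4 CPM), Pgam1 (56.0 CPM) and Pkm (133 CPM). The log2 ratios of tumor T cells over spleen were 4.63 and 3.82 for Tpi1, 3.15 and 2.84 for Gapdh, 2.73 and 2.45 for Pgk1, 2.60 and 1.85 for Pgam1, and 2.55 and 2.12 for Pkm. As a group, 7 of 7 tested members of these steps rose with the label Pdcd1fl/fl (median 2.73), and 7 of 8 rose and 1 fell with the label Pdcd1 cKO (median 2.28). Of all genes 16.3% and 11.1% rose and 37.8% and 46.8% fell, with medians of −0.38 and −0.86. The member that fell was Bpgm, which makes the hemoglobin ligand bisphosphoglycerate, at −1.39, after 23.9, 21.1, 29.7 and 29.4 CPM in thymus and spleen and 28 and 59 UMIs in tumor T cells. Under median-of-ratios scaling the fall of Bpgm did not pass the threshold.

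Enolase, the step before pyruvate kinase, combined a tissue change with an isozyme change. Eno1, the general form, was at 136, 98.2, 70.7, 153, 270.2 and 353 CPM, and Eno3, the muscle-type form, at 4.38, 4.07, 9.91, 9.52, 76.7 and 63.5 CPM. Eno3 rose in tumor T cells relative to spleen by 2.95 and 2.74, and its share of enolase UMIs reached 22.1% (19.9 to 24.4) and 15.2% (13.8 to 16.8). In thymus that share was 3.11% and 3.99%, and in spleen 12.3% (7.87 to 18.0) and 5.86% (4.71 to 7.20), where 27.3% of the 22 Eno3 UMIs of the library labelled Pdcd1fl/fl came from 1 cell. Macrophage-like cells held only 1 and 2 Eno3 UMIs, log2 ratios of −4.32 (−9.63 to −1.83) and −3.58 (−6.63 to −1.72) relative to T cells, and in melanoma-like cells Eno3 was at 33.9 and 40.7 CPM. Eno3 was thus more abundant in T cells than in either other tumor class.

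Between labels, 6 of the 8 genes from triose phosphate to pyruvate had ratios below 0 in thymus and above 0 in spleen, but none passed the threshold in thymus and only Eno1 did in spleen. The all-gene medians were −0.07 in thymus and 0.17 in spleen, and how many of all genes had this pair of signs was not counted. In thymus the label ratio was −0.61 (−0.71 to −0.50) for Tpi1, −0.36 (−0.42 to −0.30) for Gapdh, −0.37 (−0.46 to −0.28) for Pgk1, −0.58 (−0.69 to −0.46) for Pgam1, −0.48 (−0.59 to −0.36) for Eno1 and −0.60 (−0.68 to −0.52) for Pkm. Among cycling thymus cells alone, Tpi1 was at 208 and 200 CPM, Gapdh at 501 and 518 CPM, and Pgk1 at 262 and 269 CPM. Pgam1 was at 175 and 169 CPM there, Eno1 at 148 and 112 CPM, and Pkm at 327 and 265 CPM. In the other thymus cells all 6 were lower with the label Pdcd1 cKO. Cycling markers still made up 0.0337% and 0.0207% of the UMIs of those other cells, so the labels were not equal in cycling RNA there. In spleen the label ratio was 0.79 (0.37 to 1.24), 0.39 (0.18 to 0.61), 0.35 (0.08 to 0.62), 0.50 (0.17 to 0.85), 1.11 (0.87 to 1.36) and 0.59 (0.40 to 0.80) for the same 6 genes, where Eno1 did not pass under median-of-ratios scaling and Gapdh reversed to −0.11 under the strict filter. Bpgm, at −0.18 and −0.02 in thymus and spleen, and Eno3, at −0.10 and −0.06, had intervals that held 0 in both tissues. For tumor T cells the values were −0.02 (−0.10 to 0.06), 0.09 (0.02 to 0.15), 0.06 (−0.03 to 0.15), −0.25 (−0.37 to −0.12), 0.39 (0.27 to 0.50) and 0.16 (0.08 to 0.23). The small Gapdh difference in tumor T cells reversed to −0.0394 when mitochondrial and ribosomal genes and Malat1 were left out of the total, and Gapdh and Pkm reversed to −0.0790 and −0.11 within T cell cluster 3. Among genes from aldolase to pyruvate with at least 100 UMIs, Eno1 and Aldoa thus had the highest label ratios in both spleen and tumor T cells.

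Lactate dehydrogenase was made up mostly of the Ldha subunit, which favors pyruvate reduction, and among the T cell sets the Ldhb share was highest in thymus. Ldha was at 547, 433, 140.0, 203, 1485 and 1522 CPM, and Ldhb at 96.2, 49.3, 6.30, 17.7, 14.1 and 13.5 CPM. Of their summed UMIs Ldhb held 14.96% (13.9 to 16.1) and 10.2% (9.61 to 10.9) in thymus, 4.31% (2.37 to 7.12) and 8.04% (6.87 to 9.33) in spleen, and 0.939% and 0.879% in tumor T cells, where its source cannot be told apart. Ldhb fell in spleen relative to thymus, at −3.93 and −1.48, and Ldha rose in tumor T cells relative to spleen by 3.41 and 2.91. By label, Ldhb was lower in thymus at −0.96 (−1.11 to −0.82) and rose in spleen at 1.49 (0.70 to 2.39, from 14 and 158 UMIs). Ldha followed the same directions at −0.34 (−0.39 to −0.28) and 0.53 (0.36 to 0.71), and was level in tumor T cells at 0.03 (−0.01 to 0.08). Among cycling thymus cells alone Ldha went the other way, at 644 (620.2 to 668) and 708 CPM (689 to 726), and among the other thymus cells it was at 331 and 236 CPM. Melanoma-like cells were the Ldhb-rich class, with 675 and 701 CPM, ratios of 5.58 (5.20 to 6.00) and 5.70 (5.36 to 6.06) over T cells, and a share of 26.8% (26.1 to 27.6) and 28.9% (27.8 to 30.2).

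Genes that bring pyruvate into the mitochondrion did not share in the tumor gain of the lower glycolytic steps. Mpc1 and Mpc2, the paired subunits of the mitochondrial pyruvate carrier, were at 199.8, 104, 133, 123, 152 and 124 CPM and at 175, 87.9, 144, 142, 110.1 and 117 CPM. Pdha1 and Pdhb, subunits of the enzyme that decarboxylates pyruvate, were at 105, 75.0, 42.3, 50.6, 39.6 and 31.0 CPM and at 141, 82.5, 55.8, 78.9, 38.9 and 31.4 CPM. Dlat, the acetyl-transferring subunit, was at 36.0, 26.7, 9.01, 12.4, 15.4 and 7.98 CPM. Tumor T cells over spleen, the log2 ratios were 0.19 and 0.02 for Mpc1, −0.39 and −0.28 for Mpc2, −0.09 and −0.71 for Pdha1, and −0.52 and −1.33 for Pdhb, of which only Pdhb with the label Pdcd1 cKO fell. Under median-of-ratios scaling Pdhb did not pass the threshold, and Mpc2 with the label Pdcd1 cKO reversed to 0.58. As shares of all UMIs, Ldha RNA was thus far higher in tumor T cells than in spleen, while RNA of these pyruvate entry genes was not. The all-gene medians of this comparison were −0.38 and −0.86, and Mpc1 lay above them with both labels.

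Among the kinases that switch off pyruvate dehydrogenase, the members Pdk1 and Pdk3 exchanged places between tissues. Pdk2 and Pdk4 belong to the list of other glycolysis genes and are not described singly. Pdk1 was at 38.7, 31.6, 50.9, 32.3, 8.35 and 8.17 CPM, and Pdk3 at 22.2, 15.6, 11.7, 9.30, 33.9 and 38.8 CPM. Relative to spleen, Pdk1 fell in tumor T cells, at −2.61 and −1.98 and Pdk3 rose by 1.53 and 2.06. Pdk3 held 36.5% (31.7 to 41.5) and 33.1% of their summed UMIs in thymus, 18.7% (12.6 to 26.2) and 22.4% (18.2 to 27.0) in spleen, and 80.2% (73.3 to 86.1) and 82.6% (77.3 to 87.1) in tumor T cells. Pdk3 thus made up most of the RNA of this pair in tumor T cells and the lesser part in thymus and spleen.

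By label, every pyruvate entry gene had a ratio below 0 in thymus. The ratio there was −0.95 (−1.05 to −0.84) for Mpc1, −0.99 (−1.10 to −0.88) for Mpc2, −0.77 (−0.89 to −0.65) for Pdhb, −0.49 (−0.63 to −0.36) for Pdha1 and −0.43 (−0.66 to −0.20) for Dlat, and all 7 genes of this role were below 0, with a median of −0.51. Both carrier subunits thus stood at about the same distance below the library labelled Pdcd1fl/fl, close to the threshold without reaching it. In spleen the median was −0.02, with Pdhb higher at 0.50 (0.22 to 0.79), the carrier level at −0.11 (−0.30 to 0.08) for Mpc1 and −0.02 (−0.20 to 0.16) for Mpc2, and Pdk1 lower at −0.66 (−0.98 to −0.33). In tumor T cells the median was −0.30, with Dlat at −0.95 (−1.55 to −0.35), Pdha1 at −0.36 (−0.68 to −0.03) and Mpc1 at −0.28 (−0.45 to −0.12), though Mpc1 reversed to 0.22 within T cell cluster 1 and 0.29 within cluster 2. Dlat was the lowest label ratio of any member in tumor T cells.

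Among thymus cells with CD8 RNA and no Dntt, the member median by label was also below 0, but nearer to the all-gene median. In all thymus cells these medians were −0.44 and −0.07. Cells with CD8 RNA and no Dntt numbered 240 and 956, and their member share was 0.238% and 0.163%, against 0.350% and 0.267% in the remaining thymus cells. Cycling markers made up 0.0807% and 0.0317% of the UMIs of these CD8-positive, Dntt-negative cells, so the labels still differed in cycling there. The median label ratio of these cells was −0.48 of 21 members, against −0.29 for all genes, so part of the distance is shared by genes at large. Hk1 and Pfkfb3 reversed there, to −0.44 and −0.81. Among thymus cells without cycling cells the member median was −0.53 against −0.16 for all genes, and among cycling thymus cells it was −0.19 against −0.05.

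Tumor T cells separated into 3 sub-clusters in which the labels were unequally represented, so the label ratios were also taken within each. Cluster 1 (Dapl1, Ccr7, Xcl1) held 161 and 73 cells, cluster 2 (Lin54, Serpinb9, Tnfrsf4) 80 and 64, and cluster 3 (Ccl5, Cxcr6, Gzmb) 46 and 332. The member share was 0.4996% and 0.632% in cluster 1, 0.721% and 0.799% in cluster 2, and 0.631% and 0.601% in cluster 3. Aldoa was higher by label in each, at 0.79 (0.64 to 0.94), 0.47 (0.34 to 0.60) and 0.23 (0.08 to 0.39), and Eno1 likewise at 0.62, 0.37 and 0.27. Ldha was not uniform, at 0.33, 0.03 and −0.19, and Slc16a3 was lower in cluster 3 at −0.71 (−1.15 to −0.25). The member medians were 0.28, 0.14 and −0.09, against 0.11, 0.04 and 0.10 for all genes. In macrophage-like cells, a comparison of 27 with 34 cells, the median label ratio of 12 members was 0.69 against −0.04, with Aldoa at 1.26 (1.00 to 1.52), Pgk1 at 1.20 (0.91 to 1.504) and Gapdh at 1.01 (0.72 to 1.29), while melanoma-like cells stood at −0.10 against −0.12.

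Cycling cells held more glycolytic RNA than other cells, most clearly in the thymus library labelled Pdcd1 cKO. The member share in cycling and other cells was 0.367% and 0.257% in the thymus labelled Pdcd1fl/fl, 0.331% and 0.174% in the thymus labelled Pdcd1 cKO, 0.675% and 0.449% in tumor T cells labelled Pdcd1fl/fl, and 0.666% and 0.613% in those labelled Pdcd1 cKO. Of the members, 1 of 25 rose in the thymus labelled Pdcd1fl/fl (5.53% of 6623 genes rose), with a median of 0.23 against 0.03. In the thymus labelled Pdcd1 cKO 6 of 27 rose (10.6% of 9654 genes rose), with a median of 0.50 against 0.07. In tumor T cells 1 of 18 rose with the label Pdcd1fl/fl (6.75% of 2651 genes rose; medians 0.53 and 0.30) and 0 of 20 with the label Pdcd1 cKO (3.85% of 3532 genes rose; medians 0.16 and 0.12). The 6 were Tpi1 at 1.77, Pgam1 at 1.68, Ldha at 1.58, Dlat at 1.44, Pgk1 at 1.34 and Gapdh at 1.33, and in the thymus labelled Pdcd1fl/fl only Dlat rose, at 1.04. The gene that rose in tumor T cells labelled Pdcd1fl/fl was Pfkl, at 1.02. No member passed there under median-of-ratios scaling, nor there or in the thymus labelled Pdcd1fl/fl when a cycling cell needed 10 UMIs of the markers. Ldha, for the making of lactate, was at 644 CPM in cycling and 331 CPM in other cells of the thymus labelled Pdcd1fl/fl, and at 708 and 236 CPM with the label Pdcd1 cKO. Its tumor T cell values were 1734 and 987 CPM and then 1585 and 1407 CPM, so the noncycling tumor cells labelled Pdcd1 cKO were nearly as rich in Ldha as the cycling ones.

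Lists of neighboring genes placed the members in context. They cover other glycolysis genes (35, of which 1 was at 0 everywhere), the pentose phosphate pathway (7), the tricarboxylic acid (TCA) cycle (16), regulators of glycolysis (16) and genes known to respond to hypoxia (20). In the thymus label comparison 0 of 16 other glycolysis genes, 0 of 7 pentose phosphate genes and 0 of 14 regulators passed (medians −0.09, −0.42 and 0.14), 3 of 16 TCA genes fell (median −0.41, with 4.06% of all genes down), and 1 of 15 hypoxia genes rose and 1 fell (median −0.20). The mitochondrial cycle thus shared the direction of the pyruvate entry genes there, with Sdhb at −1.06, Idh3a at −1.08 and Sucla2 at −1.01. In spleen 0 of 8, 0 of 7, 0 of 16 and 0 of 14 passed for other glycolysis, pentose phosphate, TCA and regulators (medians 0.24, 0.41, 0.34 and 0.11), and 2 of 10 hypoxia genes rose (median 0.18), Ddit4 at 1.504 and Bhlhe40 at 1.92, beside 5.08% of all genes (median 0.17). In tumor T cells 0 of 7, 0 of 7, 0 of 16 and 0 of 8 passed (medians 0.13, 0.14, 0.07 and 0.34), and 2 of 10 hypoxia genes rose (median 0.21), Bnip3 at 1.37 and Ddit4 at 1.17, beside 4.18% of all genes (median 0.08).

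In tumor T cells over spleen, pentose phosphate and hypoxia genes had the highest medians of these lists and regulators the lowest, beside all-gene medians of −0.38 and −0.86. With the label Pdcd1fl/fl, where 16.3% of all genes rose and 37.8% fell, 2 of 7 other glycolysis genes rose and 3 fell (median −0.40), 4 of 5 pentose phosphate genes rose (1.39), 3 of 16 TCA genes rose and 2 fell (0.62), 0 of 8 regulators rose and 5 fell (−1.33), and 4 of 7 hypoxia genes rose and 1 fell (1.20). The same lists gave, with the label Pdcd1 cKO, where 11.1% of all genes rose and 46.8% fell, 2 of 9 up and 2 down (−0.62), 3 of 7 up (0.87), 2 of 16 up and 4 down (0.27), 0 of 14 up and 8 down (−1.50), and 5 of 12 up and 3 down (0.76). Myc, which drives glycolytic genes, was at 30.5, 43.7, 31.5 and 61.6 CPM in thymus and spleen and at 42 and 29 UMIs in tumor T cells, a fall from spleen of −1.52 and −3.48. Txnip, which holds back glucose uptake, was at 66.8, 116, 149, 178, 48.0 and 59.3 CPM, and Hif1a, the hypoxia factor, at 41.3, 58.0, 36.9, 41.0, 37.6 and 30.2 CPM. As shares of all UMIs, Myc and Txnip RNA were thus lower in tumor T cells than in spleen, where the all-gene medians were also below 0. Hif1a was close to its spleen level with the label Pdcd1fl/fl and lower with the label Pdcd1 cKO. RNA counts do not measure these proteins, and their part in the levels of the members was not tested. Spleen over thymus with the label Pdcd1fl/fl, 0 of 7 other glycolysis genes passed (−0.62), 7 of 7 pentose phosphate genes fell (−1.51), 9 of 16 TCA genes fell (−1.32), 2 of 12 regulators rose (−0.10), and 2 of 11 hypoxia genes rose and 5 fell (−0.43), beside 7.95% and 28.4% of all genes. With the label Pdcd1 cKO 2 of 16, 2 of 7 and 1 of 16 fell in the first 3 lists (−0.12, −0.53 and −0.35), 0 of 14 regulators passed (0.31), and 2 of 14 hypoxia genes rose and 4 fell (−0.23), beside 9.61% and 14.7% of all genes.

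In melanoma-like over T cells, pentose phosphate genes had the lowest median of these lists, and the hypoxia median lay above the all-gene medians of 0.80 and 0.36. With the label Pdcd1fl/fl, where 43.4% of all genes rose and 7.72% fell, 6 of 10 other glycolysis genes, 1 of 7 pentose phosphate genes, 9 of 16 TCA genes, 7 of 11 regulators and 9 of 15 hypoxia genes rose and 1 hypoxia gene fell (medians 1.26, 0.05, 1.12, 1.46 and 1.40). With the label Pdcd1 cKO, where 29.4% of all genes rose and 13.1% fell, 3 of 8 rose and 2 fell (0.93), 0 of 7 rose and 1 fell (−0.12), 8 of 16 rose (0.94), 4 of 8 rose and 1 fell (0.80), and 8 of 13 rose (1.45). Macrophage-like over T cells, 0 of 3, 1 of 4, 1 of 13, 2 of 4 and 3 of 8 rose and 1 TCA gene fell with the label Pdcd1fl/fl, beside 21.1% and 18.6% of all genes (medians 0.34, 0.58, −0.11, 1.25 and −0.01). The label Pdcd1 cKO had 2 of 6, 1 of 4, 0 of 14, 3 of 7 and 5 of 10 that rose, and 1 pentose phosphate gene and 1 regulator that fell, beside 19.8% and 22.6% of all genes (medians 0.76, 0.21, −0.25, 0.77 and 0.90). In cycling over other thymus cells the pentose phosphate and TCA medians were 0.61 and 0.52 with the label Pdcd1fl/fl and 0.77 and 0.74 with the label Pdcd1 cKO, beside member medians of 0.23 and 0.50.

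The members lie on 15 chromosomes, 6 of them on chromosome 6. For 9 of the 31 the last 500 bases of the transcript have a copy elsewhere in the genome that is at least 97% identical over at least 100 bases: Gapdh in 38 places, Pgam1 in 4, Pgk1 in 3, Eno1 and Mpc1 in 2, and Gpi1, Ldhb, Pdhb and Tpi1 in 1. Counts of these genes depend on how reads matching several places were treated, which is not given. A second gene carrying the name Aldoa held 0 UMIs in every library.

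Promoters were read for the hypoxia response core, ACGTG or GCGTG on either strand, because hypoxia factors are known to act on many glycolytic genes through such cores and Myc through CACGTG. A promoter is the 300 bases from 250 before to 50 after an annotated RefSeq start (table build GRCm38.p6, placed on GRCm39), and Slc2a3 had no entry. Of 44 promoters of 30 members, 34 held a core (77.3%), against 14380 of 32851 promoters of all genes (43.8%), with a median GC content of 62.0% against 52.7%. The CACGTG palindrome, counted on both strands, was in 4 of them (9.09%) against 2349 (7.15%). Shown are the promoter with 7 cores of Ldha, the promoter of the tumor T cell lactate exporter Slc16a3 with 2, and that of Tpi1, the glycolytic enzyme with the largest tumor over spleen ratio, with 0. Cores of either strand are in capitals (CACGT and CACGC where read on the other strand), and a match describes the sequence and is neither a binding site nor a cause of any level. Tpi1 without a core and Slc16a3 with 2 both rose in tumor T cells.
Ldha promoter, chr7:46494978-46495277, plus strand: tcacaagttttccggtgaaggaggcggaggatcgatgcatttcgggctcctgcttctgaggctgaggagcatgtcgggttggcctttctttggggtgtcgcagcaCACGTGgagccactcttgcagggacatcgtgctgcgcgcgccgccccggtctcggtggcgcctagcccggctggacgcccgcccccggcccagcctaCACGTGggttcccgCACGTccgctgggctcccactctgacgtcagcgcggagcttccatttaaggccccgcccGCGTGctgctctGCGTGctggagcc
Slc16a3 promoter, chr11:120839643-120839942, plus strand: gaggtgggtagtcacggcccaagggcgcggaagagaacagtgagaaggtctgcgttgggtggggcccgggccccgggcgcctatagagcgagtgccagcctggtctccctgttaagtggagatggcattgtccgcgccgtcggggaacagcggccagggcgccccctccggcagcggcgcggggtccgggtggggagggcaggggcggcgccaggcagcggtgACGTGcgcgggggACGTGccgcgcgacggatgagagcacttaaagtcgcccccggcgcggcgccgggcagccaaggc
Tpi1 promoter, chr6:124791072-124791371, minus strand: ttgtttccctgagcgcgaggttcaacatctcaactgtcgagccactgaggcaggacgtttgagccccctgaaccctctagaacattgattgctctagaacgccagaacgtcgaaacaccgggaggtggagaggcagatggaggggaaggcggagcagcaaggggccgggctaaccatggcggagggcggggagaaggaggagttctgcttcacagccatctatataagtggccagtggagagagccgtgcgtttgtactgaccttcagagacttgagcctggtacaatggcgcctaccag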

How the data were processed

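The authors deposited raw UMI counts per gene and barcode for 6 PIPseq libraries, aligned to GRCm39 with the PIPseq pipeline and analysed by them with Seurat 4.3.0. The annotation release is not given. Counts were read here with Python 3.11.15, NumPy 2.4.6, SciPy 1.17.1 and scanpy 1.11.5. The authors' filter was applied to the deposited barcodes (at least 500 genes and 1000 UMIs, at most 20% mitochondrial UMIs), which left 1067, 2635, 1478, 4928, 456 and 561 of 1067, 2674, 6929, 4963, 457 and 561 barcodes in the order thymus, spleen, tumor, with the library labelled Pdcd1fl/fl first in each pair. UMIs were summed over the cells of a set and divided by all UMIs of the set to give CPM, with exact Poisson 95% intervals. Two-set comparisons give log2 ratios of CPM with exact conditional binomial intervals, and shares have exact Clopper-Pearson intervals. A gene was called at 2-fold with at least 100 UMIs over both sets. With 1 library per group, no p-values are given. Tumor cells were clustered by Leiden (2000 variable genes without members or listed genes, 20 principal components, 15 neighbors, resolution 0.1, and 0.5 for T cell sub-clusters) and classes named by marker lists, of which 1 planned gene was not used here. Cycling cells held at least 5 UMIs of 14 markers, and a cycling comparison needed 20 cells on each side. Cells below that minimum could still hold UMIs of the cycling markers. The 15 comparisons were between labels, tissues, tumor cell classes, and cycling and other cells. Alternatives changed the scaling, the per-cell averaging, the cell filter, the gene minimum (20 UMIs), the fold (1.5), the cycling marker minimum (10 UMIs), the resolution (0.2), the class rule, and the cells kept. The label ratios within macrophage-like and melanoma-like cells and within T cell sub-clusters were added after the data were seen. The code was tested on simulated counts. Members and gene lists were chosen with earlier results from these data known, members outside the rule for named genes were named after their values were seen, and the clustering and naming rules were set after the files were seen. Lists of other glycolysis, pentose phosphate, TCA cycle, regulator and hypoxia genes were summarised by their medians and calls. The authors' cell annotation is not among the files and was not used here.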

Additional observations from a re-analysis of the deposited data

Results flagged for a closer look

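Some members differed between the labels in opposite directions in 2 tissues, with both counting intervals clear of 0. How many of all genes did the same was not counted. The all-gene median label ratios were −0.07 in thymus, 0.17 in spleen and 0.08 in tumor T cells. With 1 library per label and tissue the difference between tissues was not tested. Spleen minus thymus, the label ratios differed by 2.45 for Ldhb, 1.75 for Pfkl, 1.59 for Eno1, 1.51 for Aldoa, 1.39 for Tpi1, 1.27 for Pdhb, 1.2 for Pkm, 1.08 for Pgam1, 0.869 for Ldha, 0.755 for Gapdh, 0.719 for Pgk1 and 0.51 for Gpi1. Each was lower in the thymus library labelled Pdcd1 cKO and higher in the spleen library of that label. Tumor T cells minus thymus, they differed by 1.03 for Aldoa, 0.861 for Eno1, 0.757 for Pkm, 0.496 for Gpi1 and 0.447 for Gapdh. The tumor T cell ratios of Gapdh and Pkm reversed at doubled resolution and in T cell cluster 3, and those of Gapdh also on a total without mitochondrial, ribosomal and Malat1 UMIs. The spleen ratio of Gapdh reversed under the strict filter, and Ldha, Gapdh and Pgk1 were not lower with the label Pdcd1 cKO among cycling thymus cells. Tumor T cells minus spleen, Pgam1 differed by −0.748. The share of cycling cells in thymus (53.9% and 24.8%) and the sums of B or plasma (198 and 2168 CPM), granulocyte (2.70 and 70.1 CPM), erythroid (1.35 and 29.9 CPM), NK (83.7 and 160.02 CPM) and macrophage markers (12.2 and 31.5 CPM) in spleen also differed between the labels, and their part in these differences was not tested.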

How the results depend on the processing

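Of 930 single-gene values under alternative settings, 701 stayed within the first value's counting interval, 207 moved out of it, and 22 reversed from an interval clear of 0. Of 66 list medians 57 stayed within the median of the members' intervals and 9 moved. Medians whose interval held 0 could change sign: that of tumor T cells by label, 0.03, reached −0.16 at doubled resolution. Counts of members up stayed (within 1.5 times) in 62 of 77 cases and counts of members down in 51 of 69. Except where stated, the cause was not tested. Alternatives added after seeing the data were the CD8-positive, Dntt-negative thymus cells without cycling cells, the T cell clusters taken singly, and the tumor classes without mixed cells. No paired analysis was possible because each label and tissue had 1 library and nothing in the labels pairs them.

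For the label ratio in thymus, the median was −0.26 on the total without mitochondrial, ribosomal and Malat1 UMIs. Members down numbered 2 by mean per-cell CPM, 8 at 1.5-fold, 2 without cycling cells, 1 in CD8-positive Dntt-negative cells, and 1 there without cycling cells. In the same order 631 and 1653 of 10378, 402 of 8658, 356 of 6069 and 243 of 5636 genes fell. Hk1 and Pfkfb3 reversed to −0.44 and −0.81 in CD8-positive Dntt-negative cells, and to −0.56 and −0.61 without cycling ones.

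In spleen, members up numbered 2 by median of ratios, 2 on the reduced total, 7 by mean per-cell CPM, 1 under the strict filter, 9 at 1.5-fold (with 1 down) and 2 among cells with T markers and no other lineage. In the same order 229, 259 and 445 of 7842, 279 of 4162, 1385 of 7842 (with 266 down) and 171 of 4399 genes rose. Gapdh reversed to −0.11 under the strict filter.

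In tumor T cells, members down numbered 1 by median of ratios, 1 on the reduced total, 1 by mean per-cell CPM and 2 at 1.5-fold. In the same order 108, 121, 96 and 266 of 5000 genes fell. The median was 0.40 without cycling cells (all genes 0.23) and 0.28 in cluster 1 alone. Gapdh reversed to −0.0394 on the reduced total, −0.0473 at doubled resolution and −0.0790 in cluster 3, and Pkm to −0.0253 and −0.11 under the last 2. Slc16a1 reversed to 0.27 in cluster 1, and Mpc1 to 0.22 in cluster 1 and 0.29 in cluster 2.

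Median of ratios moves all ratios of a comparison alike. For melanoma-like over T cells labelled Pdcd1fl/fl it gave a median of 0.31 with 9 up (1557 of 6660 genes). There it reversed Pkm to −0.0364, Ldha to −0.49 and Mpc1 to −0.22. With the label Pdcd1 cKO it gave 0.61 with 2 down (1029 of 5210 genes) and Ldha at −0.19. The 1.5-fold call there gave 19 up and 2 down (2234 and 1101 of 5210 genes). For tumor T cells over spleen, median of ratios gave 1 down with the label Pdcd1fl/fl (1476 of 4834 genes). With the label Pdcd1 cKO it gave a median of 0.65, 2 down (2293 of 8352 genes), Slc2a3 at 0.23 and Mpc2 at 0.58. For spleen over thymus labelled Pdcd1fl/fl it reversed Mpc2 to 0.15. For cycling tumor T cells labelled Pdcd1fl/fl it gave a median of 0.23 with 0 up (80 of 2651 genes).

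Without cycling cells, the median of tumor T cells over spleen labelled Pdcd1fl/fl was 0.73. Spleen over thymus labelled Pdcd1 cKO then had a median of 0.19 with 1 down (892 of 9703 genes) and Pkm reversed to 0.19. At 1.5-fold 8 were up there (2053 of 10665 genes). Macrophage-like over T cells labelled Pdcd1fl/fl gave 2 down (634 of 2963 genes) and Ldha at 0.0157 under the marker rule. At a minimum of 20 UMIs it gave 8 up (2826 of 8186 genes), and at 1.5-fold 2 down (892 of 2949 genes). With the label Pdcd1 cKO it gave 14 up and 4 down at 20 UMIs, where more genes are tested (2722 and 1494 of 9613). With 10 UMIs of cycling markers, members up numbered 0 in thymus and 0 in tumor T cells labelled Pdcd1fl/fl, and 1 in tumor T cells labelled Pdcd1 cKO. In the same order 170 of 6623, 67 of 2651 and 95 of 3532 genes rose.

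Depth limits the small sets most: spleen under the strict filter kept 86 and 954 cells, and macrophage-like cells numbered 27 and 34. Members with few UMIs, such as Pfkfb4, Pfkm and Aldoc, could not be called in most comparisons.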
